A study of Sinonovacula constricta with 18 samples.

Results

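The 100 most abundant transcript clusters that all examined tissues of the razor clam Sinonovacula constricta held at similar levels were described. They were chosen by their FPKM (the fragments counted for a cluster, scaled by its length and by the size of the library) in 18 libraries. A cluster was kept when its highest tissue mean was under 4 times its lowest, which left 11465 of 32250 clusters. The kept clusters were ranked by mean FPKM of the 18 libraries, and the first 100 were taken. The libraries came from the foot, siphon, mantle, gill, labial palp and intestine of healthy adult clams, with 3 libraries per tissue, numbered 1 to 3. No treatment was applied to any group, and the samples labelled foot come from foot muscle. According to the series text each library was made from a pool of 3 individuals, so animals could not be told apart within a library. Nothing in the labels says whether libraries of the same number share animals, a preparation or a sequencing run, and p-values therefore measure the spread between these libraries, which may be technical. In tests of the replicate number, libraries of different tissues stand as repeats of a number. If a number marks the same animals or run in these tissues, those libraries are not independent. The p-values of a number then do not measure a spread between pools or runs.

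In animal tissues, transcripts that are abundant everywhere usually serve tasks that every cell has to perform. They typically encode ribosomal proteins and elongation factors that carry out translation, mitochondrial subunits that supply energy, and cytoskeletal proteins such as actin and tubulin. In bivalves the siphon draws in and expels water, the gill and labial palp collect and sort food, the mantle secretes the shell, the intestine digests and the muscular foot burrows. The deposited clusters carry no gene names and no sequences were used here, so no function was assigned to any member, and the tissue labels could not be checked against marker genes. A cluster is called here by the last part of its ID. The full ID of the most abundant member, for example, is i0_ICE_sample8a197f|c22/4/855, in which 855 is the length in bases, and some IDs carry a suffix, a point and a digit, after that length.

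The libraries held between 9982441 and 17970120 reads. They differed in composition. The trimmed mean of M-values (TMM) factors, which rescale libraries so that most clusters stand at the same level, ranged from 0.509 to 0.727 in the foot and from 0.726 to 0.825 in the siphon, against 1.15 to 1.42 over the gill, intestine and labial palp. Dividing by them moved all clusters up by 0.46 to 0.97 on the log2 scale in the foot and by 0.28 to 0.46 in the siphon. The same step moved them by -0.51 to -0.38 in the labial palp, by -0.47 to -0.32 in the gill, by -0.41 to -0.20 in the intestine and by -0.06 to 0.16 in the mantle. Libraries 1 of the siphon, gill, intestine, labial palp and foot shared deviations from their tissues' means, and so did libraries 2 and 3. Over 26222 clusters with at least 180 reads, the deviations of these libraries had correlations of 0.257 to 0.864 in the 30 pairs of equal number, against -0.0319 to 0.0534 in the 15 such pairs with a mantle library. The weakest of the 30 joined library 3 of the siphon, gill or foot to library 3 of the intestine or labial palp, at 0.257 to 0.330. Over the 100 members those pairs stood at -0.115 to -0.0067, so number 3 was not shared between these 2 groups of tissues there. The 15 pairs with a mantle library ran from -0.431 to 0.207 over the 100 members with a median of -0.387, so most were negative there. Over the 53 members with little spread within tissues (a coefficient of variation under 0.25), 8 of the 15 pairs with a mantle library were above 0.1 and the highest was 0.568.

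The mean FPKM of the members ranged from 464.6 to 10139 with a median of 941.3, and 45 members had a mean of at least 1000. Of the 203 clusters at or above the level of the last member, the fold limit left out 103, and 54 members were among the 100 highest clusters of all. The fold between the highest and the lowest tissue mean ranged from 1.29 to 3.99 among the members with a median of 1.99. It was under 2 in 51 members, from 2 to 3 in 31 and over 3 in 18. These values chose the members and are given as a description. The last member, c11522/1/1511, stood at 464.6 FPKM and the next cluster in rank, c283974/116/1974, at 463.6. The member nearest the fold limit, c9026/1/2644.2, had a fold of 3.99, and the nearest cluster outside it, c5396/1/1765.2, had a fold of 4.05 at 583.3 FPKM. The most abundant clusters left out by the fold limit were c6316/1/3648.1 at 6340 FPKM with a fold of 61.9, c12261/1/2538.1 at 4465 FPKM with a fold of 75.8 and c183699/1/1164 at 3441 FPKM with a fold of 4.69.

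The most abundant member, c22/4/855, averaged 10139 FPKM, which was above any other cluster of the series. Its libraries 1, 2 and 3 stood at 6629, 9805 and 6597 FPKM in the siphon, at 8054, 8969 and 7409 in the gill and at 8708, 10852 and 9196 in the mantle. They stood at 7306, 10405 and 8458 FPKM in the labial palp, at 13342, 20419 and 21019 in the intestine and at 6556, 10602 and 8170 in the foot. The 3 intestine libraries were thus above all 15 others as deposited, and the other tissues overlapped one another. By the tissue mean, the intestine was also the highest tissue after TMM rescaling, at 15010 against 14113 in the foot. Single libraries were not compared on that scale.

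The cluster c660/1/930 was the member next in rank at 3766 FPKM. It stood at 3320, 4123 and 2933 FPKM in the siphon, at 3012, 2976 and 2757 in the gill and at 3485, 4165 and 5126 in the mantle. The intestine libraries held 3938, 5913 and 5655 FPKM, those of the labial palp 2396, 3166 and 3285 and those of the foot 2662, 5159 and 3724. The gill and labial palp were low and the intestine was high as deposited, with overlap between the intestine, siphon, mantle and foot, and after TMM rescaling the foot was the highest tissue and the labial palp the lowest.

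The member at rank 3, c9026/1/2644.2, averaged 3612 FPKM and was both the third most abundant and the one nearest the fold limit. Its FPKM in libraries 1, 2 and 3 was 1715, 3066 and 20.9 in the siphon, 2156, 4223 and 22.4 in the gill and 1732, 3498 and 19.8 in the foot. It was 6395, 8233 and 4524 in the mantle, 2234, 5087 and 8320 in the labial palp and 2077, 3747 and 7941 in the intestine. Library 3 was therefore at under 10% of the cluster's mean in 3 tissues, was also the lowest library of the mantle, and was the highest library in the intestine and labial palp. The siphon, gill and foot means of this cluster include those 3 low libraries.

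The members at ranks 4 and 5 differed from each other in their highest library. In c8/7/996, which averaged 3372 FPKM, library 1 was the highest library of every tissue, with 4296, 2325 and 2768 FPKM in libraries 1, 2 and 3 of the siphon and 3640, 1843 and 2046 in the gill. Its mantle libraries held 6663, 4027 and 3277 FPKM, its intestine libraries 6982, 3401 and 4773, its labial palp libraries 3098, 2087 and 2732 and its foot libraries 3498, 1429 and 1817. In c26433/4/1608, which averaged 3217 FPKM, library 2 was the highest of every tissue, with 2206, 4593 and 2359 FPKM in the siphon, 2171, 3152 and 1930 in the gill and 3211, 4483 and 4337 in the mantle. It held 1826, 3779 and 2849 FPKM in the labial palp, 3098, 6073 and 3589 in the intestine and 1956, 3411 and 2884 in the foot. In edgeR with tissue in the model, number 1 of c8/7/996 was higher than the mean of the other 2 numbers by 0.62 on the log2 scale (SE 0.14, adjusted p = 0.0132), which became 0.0516 without foot library 1. Number 2 of c26433/4/1608 was higher than the mean of the other 2 numbers by 0.82 (SE 0.14, adjusted p = 0.00572, edgeR). Its number 1 differed by -0.73 (SE 0.14, adjusted p = 0.00708, edgeR). Both members were highest in the intestine by deposited FPKM, but after TMM rescaling c8/7/996 was highest in the mantle and c26433/4/1608 in the foot.

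The 100 members, which are 0.310% of the clusters, together took between 7.92% and 18.4% of the reads of a library. Their share was 15.2% ± 3.32 in the intestine, 13.7% ± 0.741 in the mantle, 11.8% ± 2.26 in the gill, 11.8% ± 2.47 in the labial palp, 11.1% ± 2.25 in the siphon and 10.5% ± 2.27 in the foot (mean ± SD, n = 3 libraries each). Libraries 1, 2 and 3 held 8.54%, 12.5% and 12.4% in the siphon, 9.26%, 12.9% and 13.4% in the gill and 7.92%, 11.4% and 12.2% in the foot. They held 9.60%, 14.5% and 11.4% in the labial palp, 11.8%, 18.4% and 15.3% in the intestine and 14.5%, 13.6% and 13.0% in the mantle. Library 1 had the lowest share in 5 tissues and the highest in the mantle. Neighbours in this order of tissues overlapped. Every mantle library exceeded every siphon and foot library, and the libraries of all other pairs of tissues overlapped. In bulk tissue, fewer cells of a type and less RNA per cell cannot be told apart. A share is also set by what else a library holds: the 103 equally abundant clusters past the fold limit took 23.2% ± 4.25 of the foot reads and 18.7% ± 1.93 of the siphon reads, against 6.18% ± 0.255 in the gill, 7.29% ± 0.988 in the labial palp, 9.55% ± 2.33 in the mantle and 6.03% ± 1.005 in the intestine. Their part in the order of the members' shares was not tested.

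**Figure D1:**
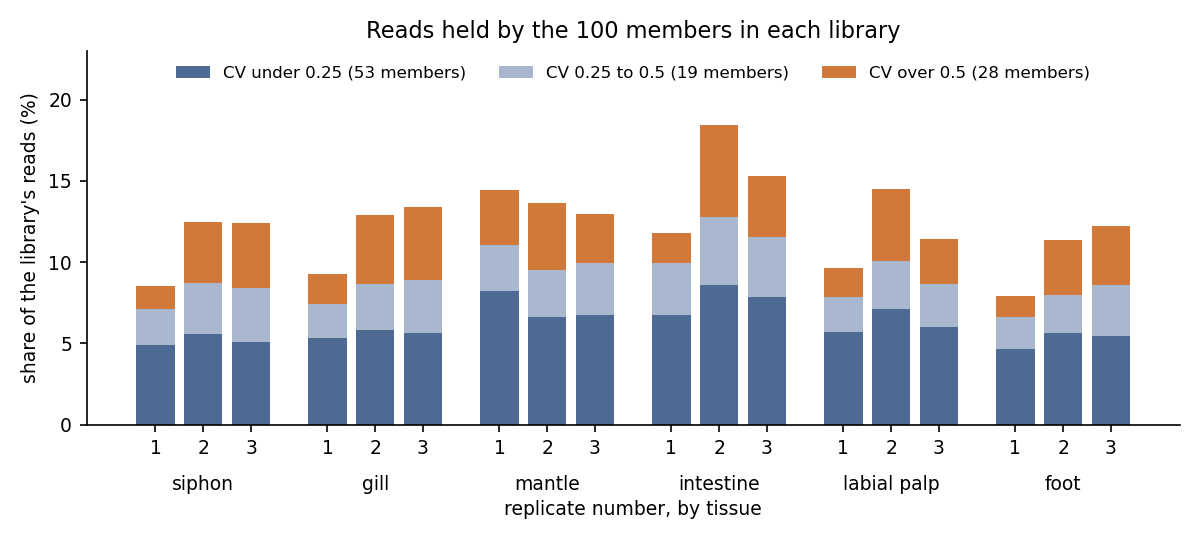
Share of each library's reads, in percent, held by the 100 members, stacked by the members' mean within-tissue coefficient of variation (CV). The bars reach 7.92% to 18.4%, library 1 has the shortest bar in every tissue but the mantle, and most of that shortfall lies in the upper, high-CV part of the bars. That part is defined by the spread between libraries of a tissue, so differences between them are tied to it.

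By deposited FPKM the members were highest in the mantle in 41 cases, in the intestine in 32, in the labial palp in 13, in the gill in 8 and in the siphon and foot in 3 each, but after TMM rescaling the foot was highest in 45, the mantle in 39 and the intestine in 7. They were lowest in the siphon in 34 cases and in the foot in 30 as deposited, against 3 and 1 after rescaling, when the gill was lowest in 46, the labial palp in 27 and the intestine in 20. In 48 members both the siphon and the foot stood below the 4 other tissues by deposited FPKM, against 1 member after rescaling. The median member held 0.79 of its 6-tissue mean in the foot and 0.79 in the siphon as deposited, against 1.29 and 1.02 after rescaling. The mantle was the tissue that moved least, at 1.18 on both scales. The foot and siphon thus changed places with the gill, intestine and labial palp between the scales, while the mantle stood above the siphon and gill on both.

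**Figure D2:**
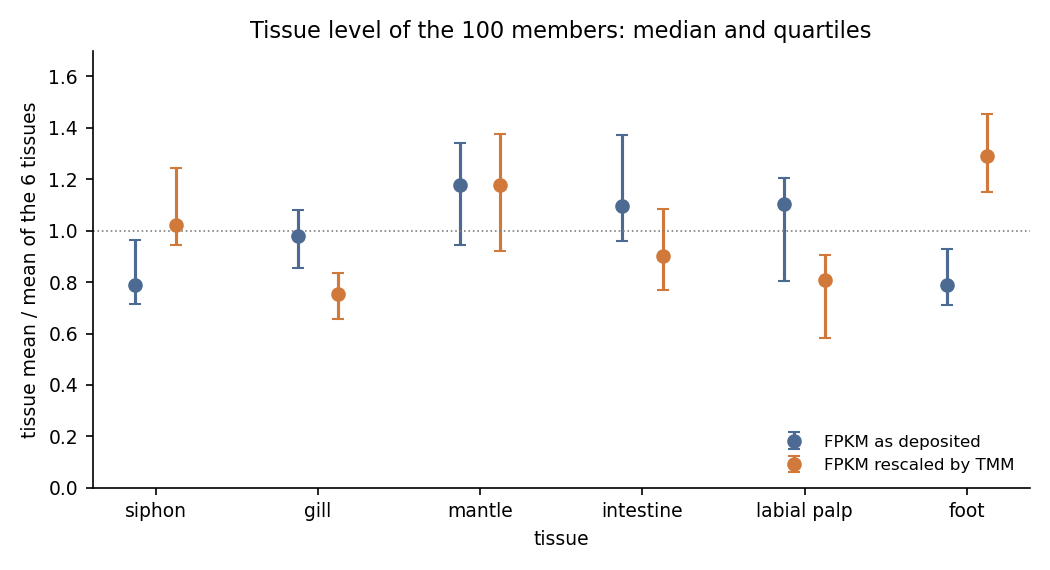
Tissue mean of each member divided by the mean of its 6 tissue means, shown for 6 tissues as the median (point) and quartiles (bars) over the 100 members, on the deposited FPKM and after division by TMM factors. The foot moves from 0.79 to 1.29 and the gill from 0.98 to 0.75, while the mantle stays at 1.18.

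Between the tissue where a member was highest and the tissue where it was lowest, the 3 libraries did not overlap in 63 of 100 members, and the same held for 64.0% of the 29930 clusters with at least 10 reads. In the quasi-likelihood F-test of edgeR among tissues, 20 of 100 members were called at an adjusted p under 0.05 against 24.3% of all clusters. The fold limit used the tissue means, so nothing is read from these counts and no member is given a tissue p. The count of 20 was moved by single libraries and fell to 9 without foot library 3, to 10 without labial palp library 3, to 11 without siphon library 2 or labial palp library 1, to 12 without siphon library 3 or any 1 gill library and to 13 without foot library 2, where 21.8% to 22.7% of all clusters were called. It was 39 with replicate number as a block, against 31.9% of all clusters, and 54 of the 98 members tested in DESeq2, against 38.3%.

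For each tissue, the member with the largest ratio of that tissue's mean FPKM to the mean of the other 5 tissues was named. It shows how much difference the fold limit still let through as deposited. For the intestine this was c31061/1/2040, with 2302, 4355 and 1889 FPKM in libraries 1, 2 and 3 of the intestine. Its other libraries ranged from 849.0 to 1578, so every intestine library lay above them as deposited, and the ratio was 2.55. By the tissue mean, the intestine remained its highest tissue after TMM rescaling, at 2313 against 1706 in the foot. Single libraries were not compared on that scale.

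For the labial palp it was c12144/3/2576.1, at 1051, 1171 and 1300 FPKM in the labial palp. It held 779.6, 893.4 and 820.3 FPKM in the gill, 792.1, 654.6 and 648.3 in the mantle and 512.6, 494.9 and 543.9 in the intestine. The foot libraries stood at 450.8, 484.9 and 511.6 FPKM and the siphon libraries at 414.1, 419.7 and 405.8. As deposited, the order of tissues by the mean was labial palp, gill, mantle, intestine, foot and siphon, and the libraries of the gill and mantle overlapped, as did those of the intestine and foot, while the labial palp and siphon stood apart. This member had one of the 2 smallest spreads within tissues of all members. After TMM rescaling the labial palp was still highest, at 876.3 against 785.0 in the foot, and the intestine was lowest.

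For the foot it was c154/1/951.1, at 1386, 3910 and 1897 FPKM in the foot. The mantle libraries held 1637, 1710 and 1425 FPKM and overlapped the foot. The remaining tissues stood lower, with siphon libraries at 928.1, 1265 and 1100, intestine libraries at 1081, 1165 and 1122, gill libraries at 684.0, 750.9 and 747.8 and labial palp libraries at 643.2, 814.9 and 650.1. The ratio of 2.29 rested largely on foot library 2, and the foot was the highest tissue of this member on both scales. After TMM rescaling its highest tissue mean was 7.94 times its lowest, which is past the fold limit set on deposited FPKM.

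In the other 3 tissues the largest ratios belonged to members that were near 0 in some libraries. For the siphon it was c37873/1/1425, at 786.4, 2509 and 3651 FPKM in the siphon and 1148, 2096 and 3691 in the gill, so that the siphon and gill overlapped. It held 485.6, 1446 and 526.0 FPKM in the labial palp, 492.4, 1667 and 370.6 in the intestine and 593.8, 1019 and 1792 in the foot. In the mantle it was listed at 0 in libraries 1 and 3 and at 3259 in library 2. The siphon ratio was 1.87, and the mantle mean of 1086 came from that 1 library.

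For the gill it was c325277/1/1447.1, with a ratio of 1.88 and gill libraries at 21.2, 7842 and 5156 FPKM. Its highest tissue was nevertheless the mantle, at 3192, 8207 and 3844 FPKM. Siphon libraries stood at 4.62, 3345 and 2008, intestine libraries at 8.91, 3952 and 0, labial palp libraries at 18.1, 6145 and 16.5 and foot libraries at 11.6, 2235 and 1649. This member was low in library 1 of 5 tissues and also in library 3 of the intestine and labial palp. For the mantle the largest ratio was 2.48, in c126041/1/1912.2, which rested on 1 mantle library at 4100 FPKM beside others at 87.2 and 0. After TMM rescaling, the folds of c126041/1/1912.2, c325277/1/1447.1 and c37873/1/1425 were 4.78, 4.95 and 5.06, also past the fold limit. Those of c31061/1/2040 and c12144/3/2576.1 were 2.55 and 2.08, within the limit.

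The member with the smallest fold, c177794/3/1394, shows that equal tissue means need not come from equal libraries. It held 488.7, 222.6 and 586.9 FPKM in the siphon, 539.0, 298.1 and 732.7 in the gill and 515.8, 286.9 and 633.6 in the foot. The intestine stood at 615.8, 274.7 and 593.0 and the labial palp at 669.9, 375.7 and 625.4, with library 2 the lowest of each of these 5 tissues. In the mantle the libraries held 5.99, 1299 and 260.3 FPKM, whose mean of 521.9 lay within the range of the other tissue means, 432.7 to 557.0.

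The spread between libraries of a tissue was not used by the rule. The coefficient of variation (CV, the SD over the mean, averaged over the 6 tissues) had a median of 0.239 over the members, against 0.577 over all clusters, 0.410 over the next 100 clusters in rank and 0.564 over the 103 clusters past the fold limit. A large spread within tissues can itself raise the fold between tissue means, so the values over all clusters and over the 103 are tied to the rule, and only the next 100 passed the same fold limit. It was under 0.25 in 53 members, called steady here, and over 0.5 in 28, called variable, limits that were set after the values were seen, and it ran from 0.0642 to 1.72. As a description, level and CV were hardly related over the members, with a Spearman correlation of -0.09 (n = 100 members from the same 18 libraries).

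**Figure D3:**
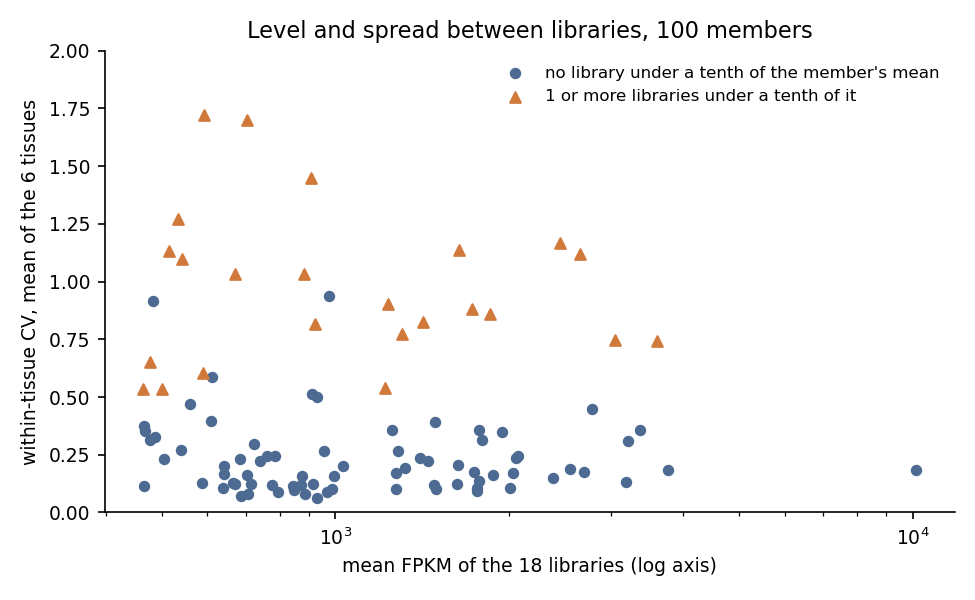
Mean FPKM of each member over 18 libraries (log axis) against its CV within tissues, averaged over the 6 tissues. Triangles mark the 24 members that fell under 10% of their own mean in 1 or more libraries. They fill the upper part of the plot at every level, and the median CV of all 100 is 0.239.

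The steadiest member was c216158/1/1307, with a CV of 0.0642. It stood at 693.5, 662.4 and 637.2 FPKM in the siphon, at 749.0, 754.2 and 681.0 in the foot and at 845.5, 855.8 and 812.7 in the gill. The intestine held 1092, 1038 and 1047 FPKM, the mantle 1301, 990.5 and 994.1 and the labial palp 1157, 1272 and 1112. The order of the means was siphon, foot, gill, intestine, mantle and labial palp. The siphon and foot overlapped, as did the intestine and mantle and the mantle and labial palp, while the gill lay apart from both neighbours as deposited. After TMM rescaling the foot was the highest tissue of this member and the gill the lowest.

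The comparison of the replicate numbers asks how far the same number differed from the others across tissues, which the rule did not use. With tissue in the model, the edgeR quasi-likelihood F-test called 23 of 100 members at an adjusted p under 0.05 against 17.7% of all clusters, and 46 members had an unadjusted p under 0.05 against 34.7%. The same test called 33 of the next 100 clusters in rank and 25 of the 103 past the fold limit. Without the mantle libraries the counts were 50 of 100 and 33.2%. The members differed from the background in direction. Number 1 was lower than the mean of the other 2 numbers in 24 members against 5.75% of all clusters, and higher in 5 against 10.3%. Its log2 difference had a median of -0.27 over the members and was negative in 85 of 100. The share of negative differences over all clusters was not counted. The model rescales by TMM factors, and library 1 had the highest factor of every tissue. In the siphon it was 0.825 against 0.726 and 0.735, and in the foot 0.727 against 0.509 and 0.654. That step lowers number 1 beside the others in every cluster, and its part in this median was not tested. Number 2 was higher in 7 members (4.36% of all clusters) and lower in 1 (5.3%), and number 3 was higher in 4 (2.9%) and lower in 0 (2.11%). Of the 24 members, 18 had no library under 10% of their mean, with log2 differences from -2.93 to -0.35. Of the 29 members called for number 1 in either direction, 10 were called with any 1 of the 18 libraries left out. Without the mantle libraries number 1 was lower in 42 members against 11.0% of all clusters, and higher in 7 against 17.5%. The F-test count of 23 was 35 to 40 without 1 mantle library, when 23.3% to 26.7% of all clusters were called. It fell to 9 to 14 without siphon libraries 1, 2 or 3, gill libraries 1, 2 or 3, labial palp libraries 1 or 2, foot libraries 1 or 3 or intestine library 1, with 9.21% to 12.2% of all clusters, and it was 16 to 20 without the remaining 4, with 11.7% to 14.5%. The counts of members and of all clusters thus moved together.

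By FPKM, number 1 was the lowest of the 3 libraries in all 5 tissues other than the mantle in 29 members and in at least 3 of the 5 in 61. Number 1 was the highest in all 5 in 7 members, number 2 in 9 and number 3 in 6. Number 2 was the lowest in all 5 in 6 members and number 3 in 1. These orders were not counted over all clusters, where libraries of equal number outside the mantle also deviated together. In the mantle, number 1 was the lowest library in 22 members and number 2 in 42, and only 7 of the 29 members were lowest in mantle library 1 too. The steady members held between 4.65% and 8.59% of a library's reads and the variable members between 1.33% and 5.63%. In every tissue but the mantle, the variable members took less of library 1 than of either other library. Their library 1 shares were 1.42% for siphon, 1.83% for gill, 1.33% for foot, 1.86% for intestine and 1.73% for labial palp. Mantle libraries 1, 2 and 3 gave them 3.42%, 4.09% and 3.04%. The variable members were defined by their spread between libraries of a tissue, so such differences are tied to that choice.

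Among members called by the F-test, the 2 largest negative and the 2 largest positive differences of number 1 from the other numbers were named. The member c23527/1/1924, which averaged 3056 FPKM, held 21.0, 4078 and 3774 FPKM in libraries 1, 2 and 3 of the siphon, 53.7, 3691 and 3661 in the gill and 24.2, 4005 and 4058 in the foot. The intestine stood at 37.6, 7712 and 7779, the labial palp at 32.3, 3640 and 3573 and the mantle at 2912, 2403 and 3551. Library 1 was thus far below the others in 5 tissues and not in the mantle. The fitted log2 difference was -6.26 (SE 1.28, adjusted p = 0.00876, edgeR over 29930 clusters), and -7.24 without the mantle.

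The member c59802/3/1242 moved less but in every tissue. It held 260.0, 1843 and 371.1 FPKM in the siphon, 104.8, 1663 and 358.6 in the gill and 291.8, 1858 and 499.8 in the foot. The mantle stood at 145.2, 861.7 and 1023, the intestine at 144.3, 2478 and 1136 and the labial palp at 141.5, 2366 and 1980. Library 1 was the lowest of all 6 tissues, and library 3 was low beside it in the siphon, gill and foot but not in the intestine, labial palp and mantle. The log2 difference was -2.93 (SE 0.41, adjusted p = 0.00124, edgeR), and -2.89 without the mantle.

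The opposite pattern was held by c126041/1/1912.2 and c49563/1/1737, which also had the 2 largest CVs of the list. The cluster c126041/1/1912.2 stood at 1572, 0 and 1.06 FPKM in the siphon, at 2027, 0 and 0 in the gill, at 1392, 0.01 and 0 in the labial palp, at 2161, 0 and 0 in the intestine and at 1234, 68.1 and 0 in the foot. Its mantle libraries held 87.2, 4100 and 0. It was therefore high in library 1 of 5 tissues and, in the mantle, in library 2. The log2 difference was 11.50 (SE 2.81, adjusted p = 0.0193, edgeR), a value that depends on the prior count since many libraries are at 0. It was 17.88 without siphon library 3. The adjusted p was 0.0745 without gill library 1, 0.072 without labial palp library 1 and 0.0708 without intestine library 1.

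The cluster c49563/1/1737 held 1301, 2.96 and 1.46 FPKM in the siphon, 1882, 3.45 and 1.98 in the gill, 2148, 4.86 and 3.24 in the labial palp, 2205, 0.96 and 3.35 in the intestine and 1580, 2.87 and 1.12 in the foot. In the mantle it held 8.63, 6.52 and 1502, so that library 3 was the high one there. The log2 difference was 8.77 (SE 1.62, adjusted p = 0.0053, edgeR). The 6 tissue means of this cluster lay between 435.3 and 736.3 with a fold of 1.69, and in each of them 1 library held nearly all of the signal.

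Such libraries were counted over the list. A library was called low for a cluster when it held under 10% of the cluster's mean of the 18 libraries, a limit set after the values were seen. Of the 100 members, 24 had 1 or more low libraries, against 56.3% of all clusters tested, 27 of the next 100 in rank and 92 of the 103 clusters past the fold limit. A wide fold can itself put the libraries of a tissue under that limit, so the values over all clusters and over the 103 are tied to the rule. The 24 members had 124 low libraries in all, and 10 of them had 1 or more libraries at 0 reads. The fold limit leaves out any cluster that is low in all 3 libraries of a tissue. For the 24 members the description as shared by all tissues thus held for tissue means and not for each library. The remaining 76 members were above 10% of their mean in every library, and 73 members never fell under 1000 reads.

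The low libraries fell into a few patterns. Library 1 of all 5 tissues other than the mantle was low in 10 members. In 6 of these, library 3 was also low in the intestine and labial palp while it was not in the siphon, gill and foot, and in the other 4 no further library of the 5 tissues was low. Library 2 of all 5 tissues was low in 4 members, and in 2 of them library 3 was low in all 5 as well. Library 3 was low in the siphon, gill and foot only in 2 members. The siphon, gill and foot had the same pattern in 21 of the 24 members, and the intestine and labial palp had the same pattern in 23. A mantle library was low in 16 members, and in 4 of them the mantle alone held low libraries. Since a library that is low by this count also raises the CV and the replicate difference of its cluster, these measures describe the same libraries.

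**Figure D4:**
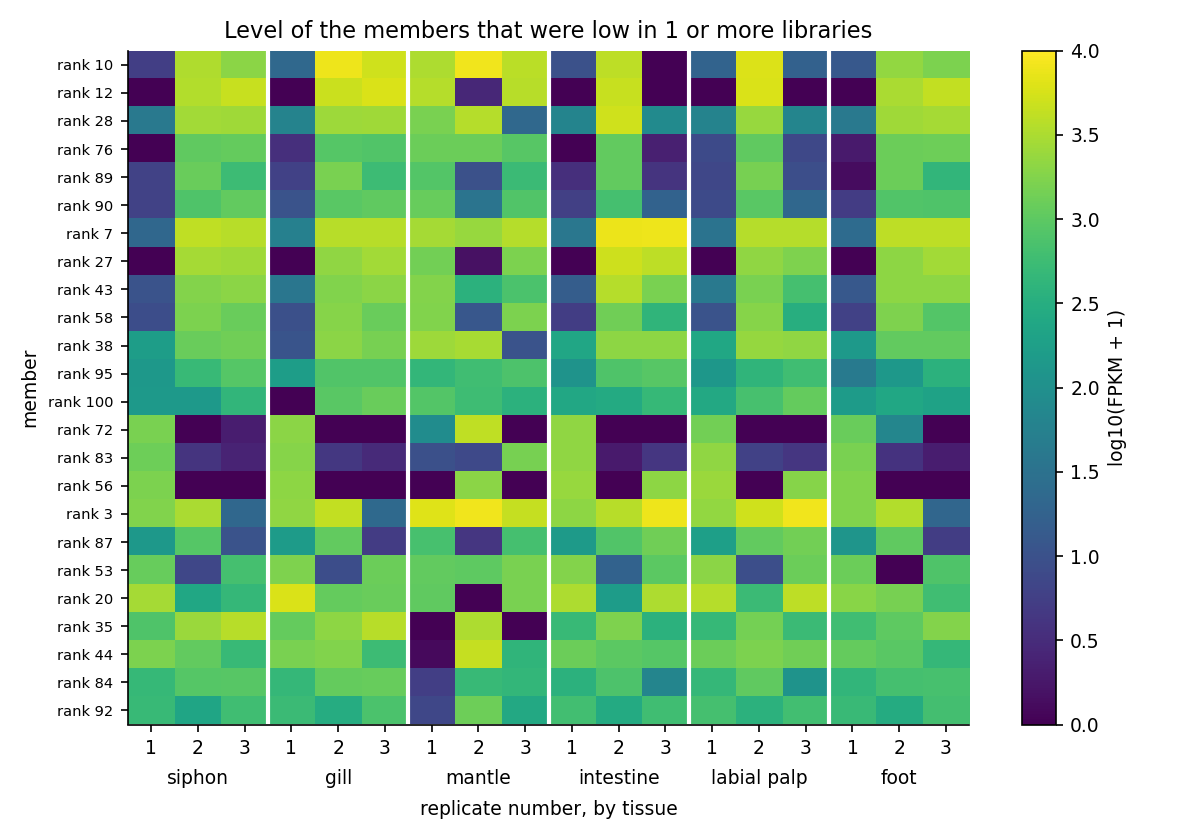
Level of the 24 members with 1 or more libraries under 10% of their mean, as log10(FPKM + 1) in colour, with members in rows (by rank) and the 18 libraries in columns. Dark cells recur at library 1 of the siphon, gill, intestine, labial palp and foot in the upper rows, and the mantle columns follow another pattern.

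The clearest case, chosen after its values were seen, was c98325/1/2031 at rank 12. It was at 0 reads in 7 libraries, which allows up to 0.194 FPKM in the least deep of them, and those were library 1 of the siphon, gill, intestine, labial palp and foot and library 3 of the intestine and labial palp. In mantle library 2 it held 1.77 FPKM. Its other 10 libraries ranged from 3074 to 5941 FPKM. No library lay between 1.77 and 3074 FPKM.

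The cluster c999/1/6210.2 at rank 56 had the opposite pattern in all 18 libraries. It held 1639 FPKM in siphon library 1, 2060 in gill library 1, 2396 and 2071 in intestine libraries 1 and 3, 2471 and 1908 in labial palp libraries 1 and 3, 1765 in foot library 1 and 2003 in mantle library 2. It was at 0 reads in the other 10 libraries, which allows up to 0.240 FPKM. Each library therefore held exactly 1 of these 2 clusters at a level of 1639 FPKM or more. The same opposition to c999/1/6210.2 was found for c64211/1/1401.1 and c20413/1/1241, which shared their low libraries with c98325/1/2031. This opposition was noticed after the values were seen. Over the 276 pairs of the 24 members, 9 pairs had the same low libraries and 3 had opposite ones.

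The members were short by the length in their IDs. That length had a median of 1562.5 bases over the members, against 2139 over all clusters, 1762 over the next 100 in rank and 1661 over the 103 clusters past the fold limit. Of the 85 clusters under 1000 bases in the whole series, 13 were members, or 15.3%, and 11 of the 13 were steady. FPKM divides by length, so short clusters rank higher by FPKM than by reads. Ranked by reads, 45 members were among the first 100 clusters, 73 among the first 200 and 88 among the first 500, and the median ID length of a list ranked by share of reads was 1797.5 bases. Within the list, FPKM and ID length had a Spearman correlation of -0.14 (n = 100 members). The shortest member, c596/1/727, averaged 1735 FPKM, with intestine libraries at 2133, 2739 and 2668 and all others between 807.7 and 2237. Its highest tissue was the intestine as deposited and the foot after TMM rescaling.

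The middle number of the ID, whose meaning is not given in the sources used here, was above 1 in 22 members (22.0%) and in 21.6% of all clusters. Its highest value in the list was 51, in c284342/51/1293 at rank 97. It had a Spearman correlation of 0.13 with FPKM over the 100 members. The abundance of a member was therefore hardly reflected in that number.

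The length that the authors' FPKM divides by can be worked out from the reads, the FPKM and the library total, and it was shorter than the ID length in every member. RSEM, the counting tool named in the submitters' processing notes, divides by an effective length, which is the transcript length less about the length of a fragment. The implied length had a median of 873.2 bases over the members against 1517 over the 21511 clusters with enough reads. For all clusters without a suffix the ID length exceeded it by 241.7 bases at the median. The 64 members without a suffix had an implied length of 80.4% of the ID length at the median. The 36 members with a suffix had 21.2%, or 397.3 bases, which places them far from the length in their ID.

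**Figure D5:**
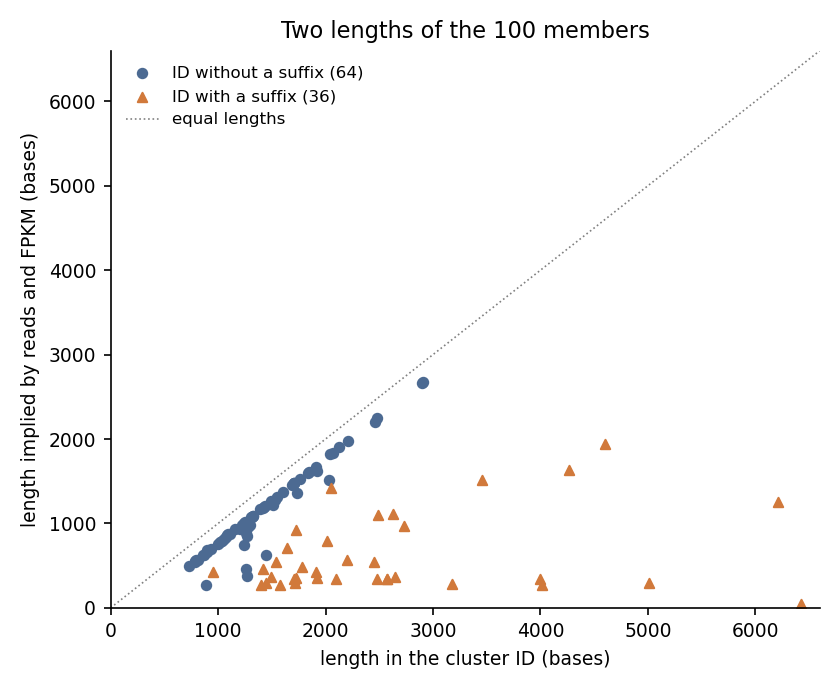
Length in the cluster ID against the length implied by reads and FPKM, both in bases, for 64 members without a suffix (circles) and 36 with one (triangles), with a dotted line of equal lengths. The circles have a median of 80.4% of the ID length, with 4 of them apart at 29.6% to 43.6%, and the triangles a median of 21.2% with a highest value of 69.0%.

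A suffix was carried by 36.0% of the members and 42.7% of all clusters. The longest member by ID, c824/1/6422.1 at rank 45, had the shortest implied length, 49.3 bases. It held 772.0, 715.3 and 996.9 FPKM in the siphon, 1092, 921.6 and 1526 in the gill and 1356, 1028 and 1253 in the mantle. It held 1329, 1411 and 1084 in the labial palp, 976.3, 1101 and 829.8 in the intestine and 672.9, 472.4 and 981.0 in the foot. The siphon and foot libraries stood below those of the mantle and labial palp, and the gill and intestine overlapped with all, as deposited, while after TMM rescaling the intestine was the lowest tissue. By reads this member ranked 3832 of all clusters with a mean of 626.6 reads per library, so its place in the list rests on the length used for its FPKM. In all, 20 members had an implied length under 400 bases.

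Other clusters of the same ID apart from the suffix were present for 17 of the 36 members with a suffix. These 20 clusters were all outside the list, and 18 of them stood under 10% of their member's FPKM, with a median of 0.618%. The exceptions were c215331/1/1637.2, at 81.4% of c215331/1/1637.1, and c999/1/6210.4, at 31.4% of c999/1/6210.2. The cluster c215331/1/1637.2 held 52.7, 2779 and 2351 FPKM in libraries 1, 2 and 3 of the siphon and 69.7, 4321 and 3092 in the foot, with 0 to 476.2 in the other tissues. It was thus high in libraries 2 and 3 of these 2 tissues, and its fold of 37.4 kept it out of the list. The cluster c999/1/6210.4 was between 58.0 and 1601 FPKM in library 1 of the 6 tissues and at or under 0.38 FPKM in all other libraries. Reads shared between similar clusters could have been divided among them by the counting, so the level of a single cluster, with or without a suffix, is uncertain. Sequences of the clusters were not compared, and such a division was not tested.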

How the data were processed

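The 18 RNA-seq libraries, 3 for each of 6 tissues of adult clams, were grouped by the tissue that their sample labels give. For each of 32250 isoform clusters the files deposited by the authors give an estimated count of the reads and a value in FPKM, normalized by the authors for transcript length and library total. The submitters' processing notes name Bowtie2, RSEM and DESeq 1.10.1. An Illumina library kit is named in the labels and a Pacific Biosciences instrument in the series text, and the link between the 2 kinds of data is not given in the sources used here. Reads per library ranged from 9982441 to 17970120, so at the members' levels counting error is small beside the spread between libraries. Intervals were not computed, and limits for counts of 0 (3 reads, the largest limit over a cluster's libraries at 0) cover counting error only.

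The members were taken by the stated rule from the deposited FPKM. Members, lists and limits were chosen with earlier results of these data known. The estimated counts were rounded, and 29930 clusters with at least 10 reads in all were tested with edgeR 4.0.16 (R 4.3.3, TMM, quasi-likelihood F-test, Benjamini-Hochberg adjustment over all of them, threshold 0.05). The model for the replicate number held tissue as a term, and each number was then set against the mean of the other 2. Tissue was tested without a block. The implied length is the median over libraries with at least 100 reads and 1 FPKM of the length that turns the reads and library total into the FPKM. Clusters are named by rules: the 5 most abundant, the shortest and longest, the smallest and largest fold, the edges of the list, the 3 highest left out, the largest ratio per tissue, the largest differences of number 1 among F-test calls, the smallest and largest CVs, and clusters that share an ID apart from the suffix. The last kind and any cluster described as chosen after its values were seen lie outside or beyond those rules. Alternatives were DESeq2 1.42.0, limma 3.58.1 on log2(FPKM + 0.1) or log2(FPKM + 1), RLE factors, other filters, rankings and fold limits, a replicate block, and leaving out the mantle or each library.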

Additional observations from a re-analysis of the deposited data

How the results depend on the processing

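The list kept 75 of its 100 members when ranked by share of reads, 85 when FPKM were rescaled by TMM factors, 94 when ranked by the median, 82 and 89 with fold limits of 3 and 6, 50 when cut to 50, and 89 to 98 with 1 library left out. After the values were seen, leaving out clusters with a low library was tried and left 76 members, and leaving out those with an implied length under 400 bases left 80. The share of the members was 16.4% in the siphon, 17.5% in the gill, 20.7% in the mantle, 20.9% in the intestine, 17.3% in the labial palp and 15.2% in the foot when taken of the summed FPKM. It was 8.07%, 8.32%, 10.2%, 11.4%, 8.86% and 7.71% in the same order without the members with a CV over 0.5, and 14.7% in the mantle for members ranked by reads. With 1 library left out it ranged from 10.5% to 12.4%, 11.1% to 13.1%, 13.3% to 14.0%, 13.5% to 16.8%, 10.5% to 12.9% and 9.64% to 11.8%, again in that order. The median length was 1797.5 bases for members ranked by reads and 873.2 bases as implied length. The median fold was 2.26 and the median CV 0.269 after TMM rescaling, against 1.98 to 2.19 and 0.219 to 0.251 with 1 library left out.

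Members called by replicate number were 46 in DESeq2 (30.9% of all clusters), 50 without the mantle (33.2%) and 9 to 40 with 1 library left out (9.21% to 26.7%). With other factors or filters they were 23 (17.0% to 20.7%). In limma they were 21 on log2(FPKM + 0.1) against 26.4% of all clusters, and 26 on log2(FPKM + 1) against 27.5%. Of these, 13 and 17 were members called in the main test. Members called among tissues were 54 of 98 tested in DESeq2 (38.3%), 13 in limma on log2(FPKM + 0.1) (39.8%), 39 with a replicate block (31.9%) and 9 to 25 with 1 library left out (21.5% to 23.6%). The cause of these differences was not tested. The labels do not say that the numbers pair the libraries. Over 26222 clusters, deviations from tissue means had a correlation above 0.1 for all 30 pairs of libraries with equal numbers outside the mantle, where each library was closest to its own number in 60 of 60 comparisons. With the mantle, 0 of 15 such pairs passed. Over the members alone, 24 of 30 and 3 of 15 pairs passed, and over the 53 steady members 22 of 30 and 8 of 15. Outside the mantle, a library was closest to its own number in 48 of 60 comparisons over the members and in 46 of 60 over the steady members. Between the mantle and the other 5 tissues this held in 1 of 15 comparisons over the members, 8 of 15 over the steady members and 7 of 15 over the 26222 clusters. Of the 4 members named for number 1, c126041/1/1912.2 ranged from 9.73 to 17.88 with 1 library left out and lost its call in 3 of 18 fits, and the other 3 kept theirs. In groups of 3 libraries no single library can be tested as an outlier, and cluster levels rest on lengths that the files do not state.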
